A study of Mus musculus with 24 samples.

Results

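The genes described here are the mouse zinc finger genes Zfp700 to Zfp999. They are the protein-coding genes whose GENCODE symbol on mm10 is Zfp followed by a number of that range and nothing else. The rule found 128 genes among 21938 protein-coding genes, and it used no measured value. The nearest other set is Zfp1 to Zfp699, with 237 genes by the same rule.

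C2H2 zinc fingers are short protein folds in which a pair of cysteines and a pair of histidines hold a zinc ion, and arrays of them read DNA sequence. Many genes of this family in mouse also encode a KRAB domain, which recruits Trim28 and the methyltransferase Setdb1 to silence endogenous retroviruses. Daxx, a chaperone that deposits histone H3.3 together with the remodeller Atrx, is known to act at the 3′ ends of zinc finger genes, where H3.3 and H3K9me3 cover the finger-coding exons. The start site and the 3′ portion of each gene, from its midpoint to its end, were therefore described apart.

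Accessible chromatin was measured by ATAC-seq, in which Tn5 transposase cuts open DNA, in 24 libraries of sorted bone marrow cells from C57BL/6 mice. All libraries are labelled Cre +/-, controls (Daxx +/+, Daxx-WT) included, and the floxed Daxx alleles (Daxx F/F, Daxx-KO) lose exons 2 to 7 after induction. For 3 sorted populations the labels give no time. These are LT-HSCs, the long-term stem cells of blood, CMPs, which give rise to myeloid cells, and GMPs, which give rise to granulocytes and monocytes, each with 2 libraries of either genotype. By the study's methods these came from RosaCreER mice, in which Cre is expressed in all tissues, and were collected 3 weeks after tamoxifen. LT-HSCs were also taken 3 days post induction (3 d.p.i.) from RosaCreER mice, with 3 Daxx-KO and 2 Daxx-WT libraries. KLS cells, a mixed stem and progenitor fraction sorted as c-Kit+ Lin- Sca-1+, were collected at 3 weeks post induction (3 w.p.i.), with 3 libraries of Daxx-KO, 2 of DKO and 2 of Daxx-WT cells. The DKO cells carried floxed Daxx and floxed Pu.1 (Daxx F/F Pu.1 F/F), and the study made this cross with Mx1Cre mice, in which Cre is induced through the interferon response. By its methods Mx1Cre mice were induced with injections of pI:pC. The methods for these ATAC-seq libraries do not name the Cre line of the Daxx-WT and Daxx-KO KLS cells. Floxed Daxx mice were C57BL/6N, and the Cre lines and floxed Pu.1 mice C57BL/6J. The study calls the libraries of a group biological replicates. The labels give no age and do not say whether mice were pooled. A legend in the study lists a Daxx +/F control at 3 d.p.i., which the labels do not mark.

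Each group had 1 deposited peak list, with 22156 peaks in DKO KLS cells to 70455 in Daxx-KO LT-HSCs without a time label, so peak presence has no spread between libraries and was not tested. The 3 deposited site tables compare Daxx-KO with Daxx-WT 3 d.p.i. LT-HSCs, and Daxx-KO and DKO with the same 2 Daxx-WT libraries of KLS cells at 3 w.p.i. Libraries in these tables had 4.21 to 16 reads per window of 600 bp on average. Kit, Hlf and Mecom, genes of stem and progenitor cells, had a start-site peak in all 11 lists. Cd34, Slamf1 and Ly6a, of the same cells, had one in 10, 5 and 0 lists. Cd3e, Cd8a and Cd79a, genes of lymphocytes, had one in none. Klf1, of erythroid cells, had one in all 11. Daxx itself checked the labels: over its deleted part, chr17:33913451-33914950, the Daxx-KO KLS libraries had 13.4, 7.0 and 9.41 scaled reads (reads divided by a constant per library) and the Daxx-WT libraries 88.5 and 53.9.

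The 128 genes lie on 17 chromosomes. With gaps of up to 500 kb joined, 93 of them form 19 clusters and 35 stand alone. The largest clusters are 16 genes on chromosome 4, chr4:145510759-147848366, and 13 genes on chromosome 17, chr17:21567008-22867134. A finger by pattern was found in 121 coding sequences, with a median of 11 fingers over all 128. In 112 genes the array of fingers sits in the last coding exon, and in 106 it lies wholly in the 3′ portion of the gene. To show what such an array looks like, the first 3 fingers of Zfp771 (+ strand) follow, from the mm10 (GRCm38.p6) reference. Its array was under a peak in every list, and capitals mark the codons of the cysteine and histidine pairs:
Zfp771 finger 1, chr7:127253856-127253918: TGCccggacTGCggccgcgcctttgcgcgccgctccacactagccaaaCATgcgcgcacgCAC
Zfp771 finger 2, chr7:127253940-127254002: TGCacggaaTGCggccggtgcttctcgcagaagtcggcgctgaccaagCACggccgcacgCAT
Zfp771 finger 3, chr7:127254024-127254086: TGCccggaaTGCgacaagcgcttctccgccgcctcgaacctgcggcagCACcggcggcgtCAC

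Most of these zinc finger genes had open start sites in every population. A start-site peak, within 1 kb of any annotated start of a protein-coding transcript, was in all 11 lists for 74 genes (57.8%, against 48.3% of all protein-coding genes and 77.2% of Zfp1 to Zfp699). It was in 1 to 10 lists for 27 genes and in none for 27 (21.1%, against 30.1% of all genes and 5.06% of Zfp1 to Zfp699). The same 74, 27 and 27 genes account for all 128. Zfp809, a KRAB protein known to silence retroviral DNA in embryonic cells, and Zfp932, known for repressing endogenous retroviruses, were among those with a peak in all 11. Zfp809, itself 1 of the 128, was named for this role and not for its values.

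In LT-HSCs without a time label, 98 of the 128 genes had a start-site peak in both the Daxx-WT and the Daxx-KO list (background over all protein-coding genes 66.4% and 67.5%). The counts were 97 in Daxx-WT and 95 in Daxx-KO CMPs (background 63.3% and 60.1%), and 93 in each genotype of GMPs (61.3% and 58.8%). At 3 d.p.i. they were 93 in each genotype of LT-HSCs (61% and 63.2%). In KLS cells at 3 w.p.i. there were 91 in Daxx-WT, 92 in Daxx-KO and 75 in DKO cells (57.3%, 60.5% and 50.1%). As shares of the 128 genes these span 71.1% to 76.6% in the 10 lists of Daxx-WT and Daxx-KO cells, and 58.6% in the DKO list, which is also the shortest list. In every list the share lay above that of all genes and below that of Zfp1 to Zfp699, whose shares were 79.7% in DKO cells and 86.9% to 94.1% elsewhere.

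**Figure D1:**
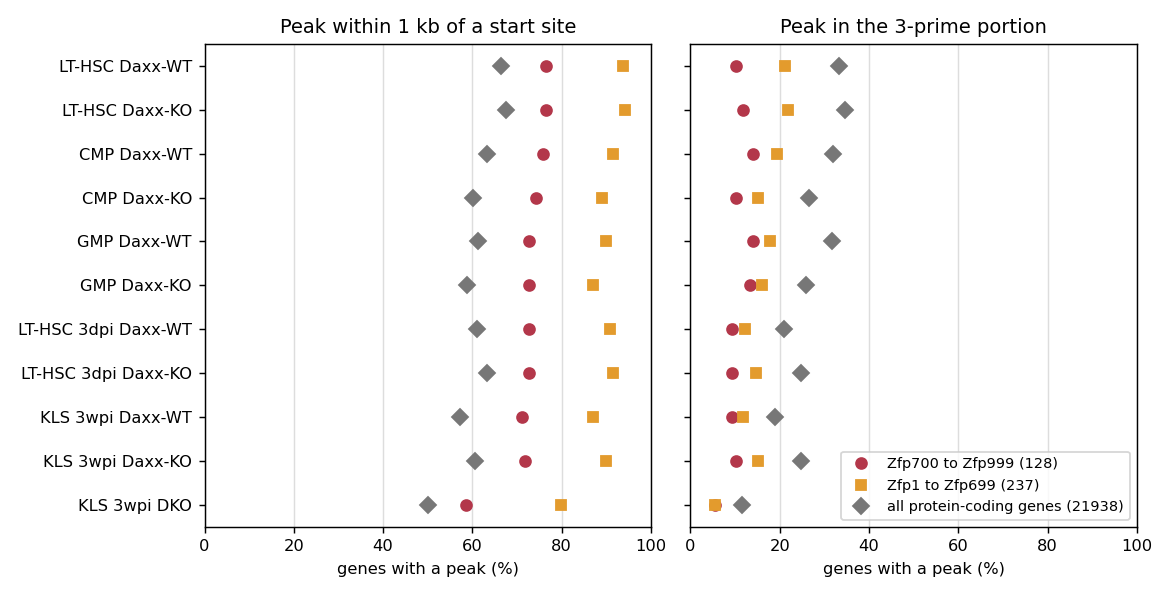
Share of genes with a peak (x axes, %) in each of the 11 peak lists (y axis), within 1 kb of a start site on the left and in the 3′ portion of the gene on the right, for Zfp700 to Zfp999 (circles), Zfp1 to Zfp699 (squares) and all protein-coding genes (diamonds). At start sites the circles lie between the other sets in every list, and in the 3′ portion they lie at 5.47% to 14.1%, below all genes.

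Where present, the peaks were strong. Over the 5 lists with the authors' fold enrichment, the median at start sites of these genes was 9.90 against 8.48 for all genes in Daxx-WT 3 d.p.i. LT-HSCs, and 10.7 against 8.81 in the Daxx-KO cells. In KLS cells it was 8.28 against 7.02 in Daxx-WT, 9.96 against 7.82 in Daxx-KO and 6.83 against 6.23 in DKO cells. The peaks were narrower than those of all genes, with a median of 966 bp against 1120 bp in Daxx-WT KLS cells. The highest fold enrichment in Daxx-WT KLS cells was at Zfp932 with 14.2, Zfp983 with 13.5 and Zfp775 with 13.4. In Daxx-KO KLS cells these 3 genes had 16.1, 14.8 and 12.9, and in DKO cells 9.53, 9.58 and 7.59. Each of the 3 had its lowest value in the DKO list.

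The 27 genes without a start-site peak sat mainly in clusters of near-copies. Of them, 13 are on chromosome 4, all in the cluster of 16, and 7 on chromosome 2. The first 10 by number are Zfp735, Zfp781, Zfp811, Zfp831, Zfp869, Zfp936, Zfp957, Zfp965, Zfp966 and Zfp967. Because short reads that match several places may be dropped, the share of 32-base words that occur elsewhere in the genome was counted in the 1 kb on each side of the 5′ end. Its median was 6.0% in the 74 genes with a peak in all lists, 10.3% in those with 1 to 10 lists, and 85.7% in those with none. Among the 36 genes with over 50% repeated words, 19 (52.8%) had no peak in any list and 7 (19.4%) had one in all 11. Among the 65 genes under 10%, 4 (6.15%) had none and 48 (73.8%) had one in all 11. The 4 are Zfp735, Zfp811, Zfp831 and Zfp957, with 7.5%, 3.1%, 0.66% and 6.4%. How the authors treated reads with several matches is not given in the sources used here, and its part in the missing peaks was not tested.

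The 7 chromosome 2 genes among the 27 show the extent of the copying, and all of them but Zfp831 had 100% repeated words at the start. The 260 bases that end 50 bases into Zfp968 and Zfp973 are printed below from mm10, both on the + strand, and a script counted 1 difference between them (99.6% identical). The differing base is in capitals in Zfp973. The aligned stretches of Zfp966 and Zfp967 had 0 differences from Zfp968, and that of Zfp965 had 1:
Zfp968, chr2:175372226-175372485: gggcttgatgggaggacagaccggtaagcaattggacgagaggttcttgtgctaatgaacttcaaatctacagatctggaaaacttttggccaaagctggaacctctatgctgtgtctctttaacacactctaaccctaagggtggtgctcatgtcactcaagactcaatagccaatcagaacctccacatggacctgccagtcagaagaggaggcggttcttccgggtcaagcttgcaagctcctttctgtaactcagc
Zfp973, chr2:176670312-176670571: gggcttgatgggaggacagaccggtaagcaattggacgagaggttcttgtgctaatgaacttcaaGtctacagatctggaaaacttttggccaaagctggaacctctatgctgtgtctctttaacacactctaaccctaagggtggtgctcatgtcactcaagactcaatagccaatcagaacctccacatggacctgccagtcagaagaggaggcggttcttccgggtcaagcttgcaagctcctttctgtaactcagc

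CpG content followed the same order. Observed over expected CpG in the start window had a median of 0.593 in the 74 genes with a peak in all lists, 0.393 in those with 1 to 10 lists and 0.267 in those with none. The median over all 128 was 0.464, below 0.552 for all protein-coding genes and 0.652 for Zfp1 to Zfp699. RefSeq promoters of 300 bases were found for 109 of the genes. The letters GGGCGG, the core of the Sp1 motif, on either strand were in 40.4% of them, against 51% of 16522 genes with such a promoter. The ETS motif CCGGAAGT was in 4.59% against 5.94%, and the Pu.1 motif GAGGAAGT in 5.5% against 3.62%. The remaining motifs searched, on both strands, were TGACGTCA (1.83% against 2.64%), AAGATGGC (4.59% against 3.64%), the NRF1 motif (1.83% against 1.53%) and the ZNF143 motif (0.917% against 0.502%). These matches are letters in a window, and near-copies among the genes share them.

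**Figure D2:**
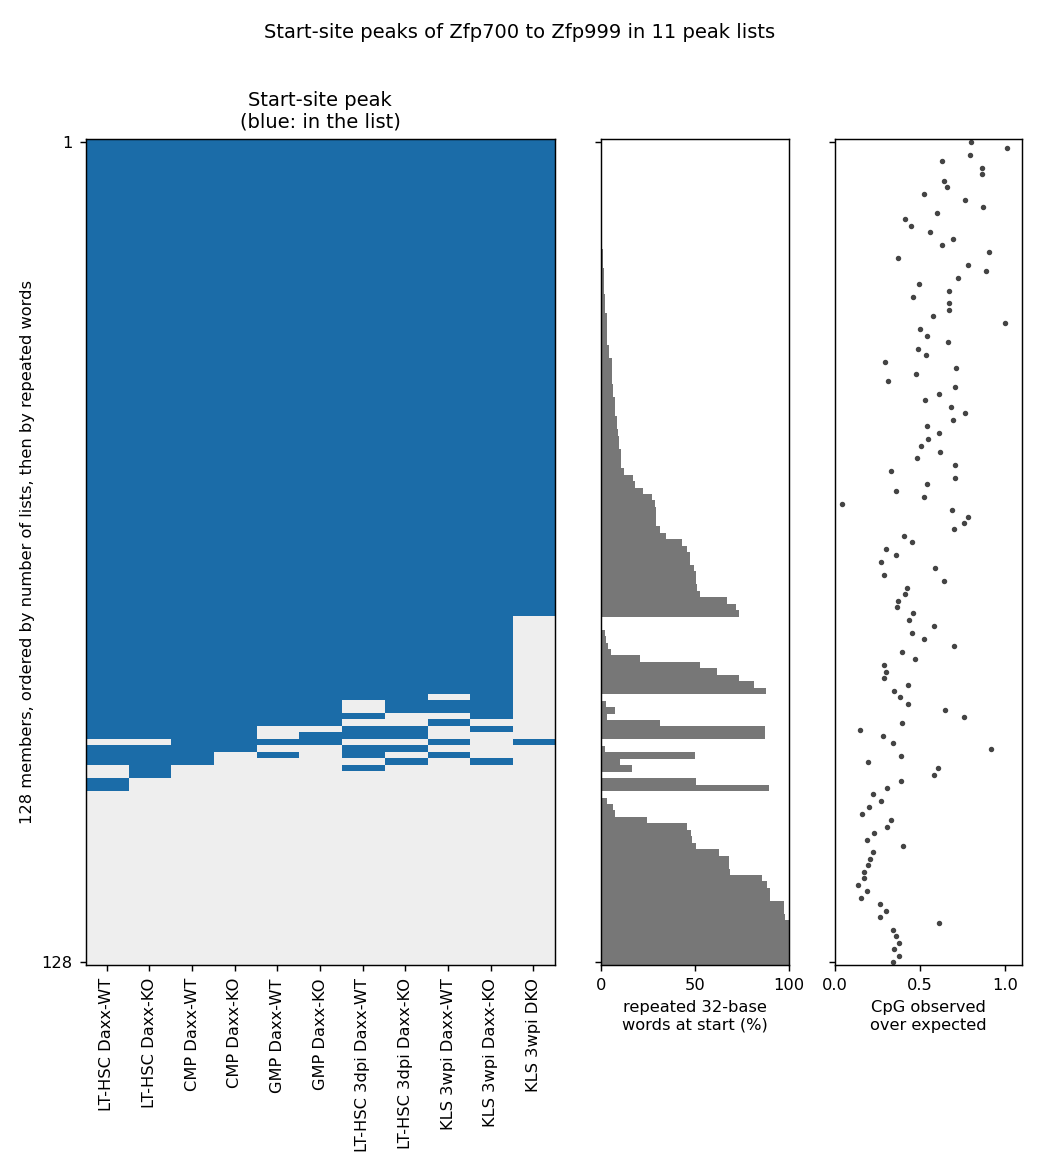
Start-site peaks of the 128 genes (rows, ordered by number of lists and then by repeated words) in the 11 lists (columns, blue where a peak is present), with the percentage of repeated 32-base words at the start (middle) and CpG observed over expected (right). The upper block of 74 genes has a peak in every list, and the lower block of 27 genes, with none, has a median of 85.7% repeated words.

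Few genes had a start-site peak in 1 genotype's list alone. In LT-HSCs without a time label these were Zfp853 and Zfp872 in the Daxx-KO list, against 1.7% of all genes, and Zfp960 and Zfp991 in the Daxx-WT list, against 0.588%. In CMPs 0 genes were in the Daxx-KO list alone (background 0.734%), and Zfp791 and Zfp951 were in the Daxx-WT list alone (3.92%). In GMPs Zfp970 was in the Daxx-KO list alone (0.802%) and Zfp951 in the Daxx-WT list alone (3.25%). In 3 d.p.i. LT-HSCs, Zfp791, Zfp938 and Zfp974 were in the Daxx-KO list alone (3.06%), and Zfp819, Zfp872 and Zfp951 in the Daxx-WT list alone (0.925%). In KLS cells, Zfp791, Zfp819, Zfp941 and Zfp972 were in the Daxx-KO list alone (4.16%), and Zfp750, a factor of epidermal differentiation, Zfp951 and Zfp995 in the Daxx-WT list alone (0.898%). As shares of the 128 genes, those in the Daxx-KO list alone were 1.56%, 0%, 0.781%, 2.34% and 3.13% in this order of populations, and those in the Daxx-WT list alone 1.56%, 1.56%, 0.781%, 2.34% and 2.34%. The Daxx-WT shares lay above the background in both LT-HSC comparisons and in KLS cells, and below it in CMPs and GMPs. With 0 to 4 genes each, and lists that differ in length, nothing particular to these genes was read from them. The KLS counts move when lists are cut to equal length, to 2 in the Daxx-KO list alone and 6 in the Daxx-WT list alone.

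For the shorter DKO list, 16 genes had a peak in Daxx-WT KLS cells alone (12.5%, against 8.11% of all genes) and 0 in DKO cells alone (0.898%). The 16 are Zfp770, Zfp773, Zfp820, Zfp827, Zfp879, Zfp931, Zfp934, Zfp935, Zfp937, Zfp938, Zfp945, Zfp947, Zfp951, Zfp952, Zfp974 and Zfp995. Zfp827, whose human counterpart recruits the NuRD complex to telomeres, was among them. With lists of equal length, 5 genes had a peak in the DKO list alone. The share of all genes at equal length is not given here, so nothing was read from this count.

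Zfp951 stood in 1 genotype's list alone most often, always the Daxx-WT list, in 5 of the 6 comparisons. The 2 KLS comparisons share their Daxx-WT list. Zfp951 (ENSMUSG00000072774.10) encodes 10 fingers by pattern and lies alone at chr5:104813169-104860070 on the - strand. Its peak was at chr5:104859476-104860474 with a fold enrichment of 8.44 in Daxx-WT 3 d.p.i. LT-HSCs, and at chr5:104859506-104860471 with 9.03 in Daxx-WT KLS cells. The Daxx-WT lists of CMPs and GMPs held it too. LT-HSCs without a time label were the exception, with a peak in Daxx-WT (chr5:104859476-104860513) and in Daxx-KO cells (chr5:104859496-104860468). Zfp995 was in the Daxx-WT list alone in both KLS comparisons. Zfp791 was in the Daxx-KO list alone at 3 d.p.i. and in KLS cells, but in the Daxx-WT list alone in CMPs.

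Zfp951 also had a listed site over its start in all 3 site tables, lower in the knockout in each. In 3 d.p.i. LT-HSCs, the site chr5:104859101-104860750 had 63.3, 79.2 and 88.7 scaled reads in the Daxx-KO and 196 and 158 in the Daxx-WT libraries. The lowest Daxx-WT library lay above the highest Daxx-KO library, with a log2 fold change of -1.19 ± 0.25 (SE) and an adjusted p of 0.301 by limma. The groups did not overlap at 99.5% of all listed sites of this table, which were selected for a difference. The peaks come from the same libraries as the sites. In KLS cells, the site chr5:104859201-104860850 had 47.9, 14.9 and 31.0 scaled reads in the 3 Daxx-KO libraries against 125 and 169 in Daxx-WT (-2.32 ± 0.46, limma adjusted p 0.284). In the DKO table, the site chr5:104859201-104860750 had 30.8 and 39.4 scaled reads in DKO and 122 and 160 in Daxx-WT libraries (-1.97 ± 0.36, limma adjusted p 5.64e-06). After scaling to the mean reads per window the 3 values were -0.85, -1.85 and -2.66. Of the 32-base words in these sites, 56.2% to 59.9% occur elsewhere in the genome. Whether reads of other copies are part of these values was not tested. The RefSeq promoter on the - strand, inside the Daxx-WT peaks, holds none of the motifs searched and is shown because the peak and the sites both lie over it:
Zfp951 promoter, chr5:104860019-104860318: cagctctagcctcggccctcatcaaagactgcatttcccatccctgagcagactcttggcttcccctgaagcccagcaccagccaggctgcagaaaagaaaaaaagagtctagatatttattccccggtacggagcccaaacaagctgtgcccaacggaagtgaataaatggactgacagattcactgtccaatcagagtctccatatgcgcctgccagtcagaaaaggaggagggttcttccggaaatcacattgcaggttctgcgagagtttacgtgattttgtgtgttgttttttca

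**Figure D3:**
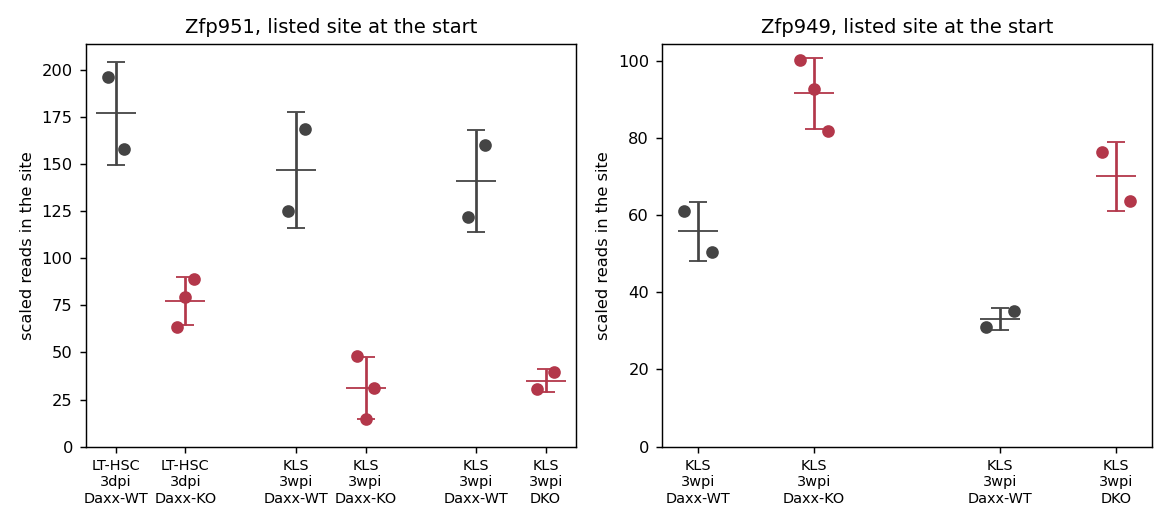
Scaled reads per library (y axes, points, with mean and SD) in the listed sites at the starts of Zfp951 (left) and Zfp949 (right), for each table's Daxx-WT and knockout libraries (x axes). Every knockout library of Zfp951 is below, and every knockout library of Zfp949 above, the Daxx-WT libraries of its table. Listed sites were selected for a difference between these libraries. The KLS tables share the Daxx-WT libraries under different scaling constants, and the Zfp949 sites of both tables are at different positions.

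The 3′ portion of these genes, where the finger arrays lie, was seldom under a peak. Leaving out peaks at the gene's own start sites, 5.47% to 14.1% of the 128 genes had a peak in the 3′ portion, depending on the list. In LT-HSCs without a time label these were 13 genes in Daxx-WT and 15 in Daxx-KO cells (background over all genes 33.3% and 34.7%). There were 18 and 13 in CMPs (32% and 26.6%), 18 and 17 in GMPs (31.7% and 25.9%), and 12 in either genotype of 3 d.p.i. LT-HSCs (20.9% and 24.8%). In KLS cells there were 12 in Daxx-WT, 13 in Daxx-KO and 7 in DKO cells (18.9%, 24.7% and 11.6%). Zfp1 to Zfp699 also lay below all genes in every list, with 5.49% in DKO cells, near the 5.47% here, and 11.8% to 21.9% elsewhere. In any list it was 23 genes (18% against 42.4%), and 21 (16.4% against 37.3%) without peaks at a start site of any gene. Per length the difference held in every list but was smaller in proportion, with 3.44 to 17.2 peaks per Mb in these portions against 4.92 to 25.4 over all genes. In Daxx-WT KLS cells it was 8.02 against 9.30 peaks per Mb, and in Daxx-WT 3 d.p.i. LT-HSCs 8.60 against 10.8. It was widest in Daxx-WT LT-HSCs without a time label, with 10.9 against 23.4. Soft-masked repeats made up a median of 31.2% of the 3′ portion, against 21.4% over all genes. Repeated 32-base words had a median of 6.63% in the 23 genes with a peak and 17.4% in the 105 without.

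Among the 21 genes, Zfp710, Zfp746, Zfp771, Zfp853, Zfp950 and Zfp961 had such a peak in all 11 lists. Zfp704 and Zfp827 had one in 10 lists, Zfp943 in 9 and Zfp948 in 8. Peaks over the finger array itself were in all 11 lists at Zfp771, chr7:127253856-127254506, the array shown above, and at Zfp853. At Zfp771 the authors' fold enrichment was 7.30 to 8.94 over the 5 lists that give it, and at Zfp853 3.43 to 5.23. Zfp853 had its start-site peak in the Daxx-KO list of LT-HSCs without a time label alone, so its array was under a peak in more lists than its start. Zfp810 and Zfp930 had a peak over the array in that same Daxx-KO list alone, and Zfp953 in both GMP lists.

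Sites that differed between genotypes were listed at 75 of the 128 genes (58.6%, against 65% of all protein-coding genes) and at none of the other 53. Because the authors selected the listed sites for a difference in these same libraries, the direction and size of each are a description, and the limma fit that follows is no independent test. No filter on low values was applied. In 3 d.p.i. LT-HSCs, 18 sites lay in these genes or within 2 kb, 4 higher and 14 lower in Daxx-KO. They touch 4 genes with a higher site (3.13%, against 8.88% of all genes) and 12 with a lower one (9.38% against 18.1%). In Daxx-KO KLS cells 3 sites were higher and 50 lower, at 3 genes (2.34% against 7.33%) and 35 genes (27.3% against 29.9%). In DKO KLS cells 120 sites were higher and 36 lower, at 40 genes (31.3% against 43.1%) and 25 genes (19.5% against 27.1%). The share of higher sites was 22.2%, 5.66% and 76.9% in the 3 tables, where all listed sites had 29.1%, 19.1% and 72.1%.

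By limma with Benjamini-Hochberg adjustment over all windows tested, 0 of the 18 LT-HSC sites and 0 of the 53 Daxx-KO KLS sites passed 0.05 (0% of all listed sites in either direction, and 0.0755% higher and 0.0503% lower in LT-HSCs after scaling to the mean reads per window, when it was again 0 of the 18). Unadjusted, 17 and 53 of them had p below 0.05, as had 11454 of 11927 and 16749 of 17311 listed sites. Among the DKO sites 109 were called higher and 14 lower (background 67.3% and 14.9% of 50928 listed sites), and 154 of the 156 had unadjusted p below 0.05. The libraries of the groups did not overlap at any of these sites, but that held for 99.5%, 99.6% and 100% of all listed sites, which the selection had fixed. The 109 calls depend on the scaling. The DKO libraries had 9.98 and 16 reads per window against 8.35 and 7.45 in Daxx-WT. Scaled to the mean reads per window, which moves the median log2 fold change by -0.67, 9 sites were called higher and 36 lower (6.5% and 27.2% of all listed sites). By group means the split of 120 higher and 36 lower was the same under both scalings. Without either DKO library 0 sites were called in each direction.

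By position, start sites in 3 d.p.i. LT-HSCs were higher at 2 genes (1.56%, against 2.38% of all genes) and lower at 3 (2.34% against 2.73%), and 3′ portions higher at 2 (1.56% against 3.47%) and lower at 4 (3.13% against 9.24%). In Daxx-KO KLS cells start sites were higher at 1 gene (0.781% against 1.55%) and lower at 8 (6.25% against 5.92%), and 3′ portions higher at 1 (0.781% against 3.16%) and lower at 8 (6.25% against 14.8%). In DKO cells start sites were higher at 11 genes (8.59% against 8.37%) and lower at 18 (14.1% against 13.7%), and 3′ portions higher at 23 (18% against 29.2%) and lower at 5 (3.91% against 9.9%). At start sites the shares lie close to those of all genes, and in the 3′ portion they are smaller in every table and direction. Zfp1 to Zfp699 also lay below all genes in the 3′ portion throughout, with 21.1% for higher DKO sites. These are shares of genes, not corrected for length. The 3′ portions span 1.75 Mb in these genes and 525 Mb over all genes, and held 53 and 13424 higher DKO sites. A deficit of sites per length was therefore not shown.

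In the DKO table the lower sites lay mostly in peaks and the higher sites mostly outside them. Of the 36 sites lower in DKO cells, 30 (83.3%) overlapped a peak of either group, against 69.5% of all lower sites. Of the 120 higher sites, 6 (5.0%) did, against 11.6% of all higher sites. The higher sites had low values in Daxx-WT cells, with a median of the group means of 13.5 scaled reads outside the chromosome 4 cluster and 25.3 within it. In Daxx-KO KLS cells 5 of the 50 lower sites (10%) overlapped a peak, against 9.68% of all lower sites. In 3 d.p.i. LT-HSCs the 4 higher sites all did, and 2 of the 14 lower sites.

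**Figure D4:**
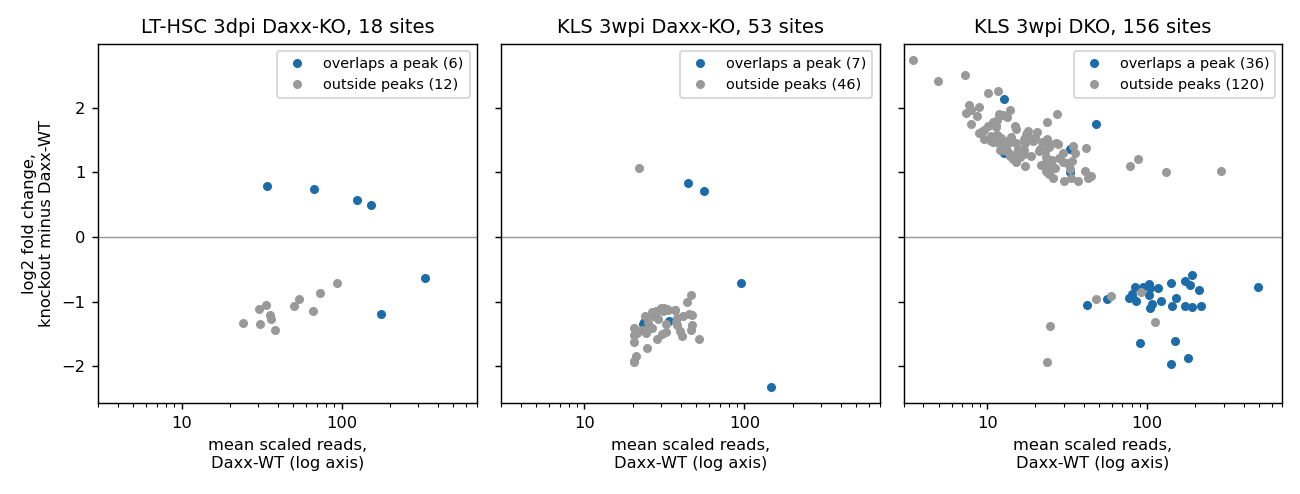
Log2 fold change, knockout minus Daxx-WT (y axes), against the mean scaled reads in Daxx-WT cells (x axes, log scale) of each listed site in or within 2 kb of Zfp700 to Zfp999, in the 3 tables. Blue points overlap a peak of either group. In DKO cells 30 of the 36 lower sites and 6 of the 120 higher sites do.

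The sites with the largest changes in 3 d.p.i. LT-HSCs were as follows. Higher in Daxx-KO were a site in the 3′ portion of Zfp948, chr17:21579101-21579700, with 55.1, 57.3 and 65.5 against 39.4 and 29.1 scaled reads (log2 fold change 0.79 ± 0.24), and the start of Zfp866 with 214, 195 and 158 against 121 and 130 (0.58 ± 0.24). The start of Zfp709, chr8:71881851-71882450, had 99.1, 137 and 106 against 60.9 and 73.2 scaled reads (0.75 ± 0.25). Its promoter on the + strand is shown because the site covers most of it, with the 1 match to CCGCCC, the reverse complement of GGGCGG, in capitals:
Zfp709 promoter, chr8:71881818-71882117: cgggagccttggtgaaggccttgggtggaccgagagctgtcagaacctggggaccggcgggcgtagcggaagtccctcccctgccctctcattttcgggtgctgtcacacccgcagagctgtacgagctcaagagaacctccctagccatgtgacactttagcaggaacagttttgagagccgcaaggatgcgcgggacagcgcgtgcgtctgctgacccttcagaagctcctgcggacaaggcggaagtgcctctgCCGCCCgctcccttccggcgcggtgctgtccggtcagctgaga

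Lower in Daxx-KO LT-HSCs was a site shared by the overlapping genes Zfp942 and Zfp943, chr17:21963751-21964450, with 11.9, 8.59 and 23.2 against 44.0 and 32.8 scaled reads (-1.43 ± 0.39). Sites in Zfp959 (12.9, 8.59 and 12.7 against 38.3 and 23.4, -1.35 ± 0.30) and Zfp787 (10.1, 8.59 and 8.45 against 27.04 and 21.6, -1.33 ± 0.23) were lower as well. No knockout library reached the lowest Daxx-WT library at these sites, and the groups did not overlap at 99.5% of all listed sites of this table. The Zfp866, Zfp942 and Zfp787 sites also lie within 1 kb of a start site of another gene. The lowest limma adjusted p among the 6 sites of both directions was 0.301.

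In Daxx-KO KLS cells the highest log2 fold change was over the finger array of Zfp930, chr8:69227951-69228800, with 52.3, 54.2 and 36.7 against 21.9 and 21.8 scaled reads (1.07 ± 0.31). This array was also under a peak in Daxx-KO LT-HSCs without a time label and in no other list. Its first 2 fingers on the + strand are shown, with the cysteine and histidine codons in capitals:
Zfp930 finger 1, chr8:69227964-69228026: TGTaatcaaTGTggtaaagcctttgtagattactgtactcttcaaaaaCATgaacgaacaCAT
Zfp930 finger 2, chr8:69228048-69228110: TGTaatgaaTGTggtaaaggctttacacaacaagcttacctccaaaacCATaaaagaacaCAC

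Next were a site in Zfp704 with 71.3, 101 and 71.5 against 40.1 and 49.3 scaled reads (0.83 ± 0.31) and the start of Zfp949, chr9:88547151-88547750, with 100.2, 92.7 and 81.8 against 61.1 and 50.4 (0.71 ± 0.29). Lower, after Zfp951, were Zfp936 with 10.02, 4.37 and 1.88 against 20.1 and 20.6 scaled reads (-1.95 ± 0.51) and Zfp947 with 5.57, 2.62 and 6.58 against 20.1 and 20.6 (-1.92 ± 0.37). Values this low rest on few reads. The lowest limma adjusted p of these KLS sites was 0.284.

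In DKO cells the largest increases were from near-empty windows in Daxx-WT cells. A site beside Zfp867, chr11:59474251-59474850, had 23.3 and 34.7 against 3.55 and 3.29 scaled reads (2.74 ± 0.36), one in Zfp936 29.7 and 57.2 against 3.55 and 10.97 (2.52 ± 0.36), and one beside Zfp811 24.4 and 38.4 against 4.44 and 5.48 (2.41 ± 0.36). The Zfp867 site also lies at the start of another gene. The start of Zfp949 was also listed, at chr9:88548651-88549450, with 76.4 and 63.7 against 31.1 and 35.1 (1.06 ± 0.36), a different interval from its Daxx-KO site. Lower, after Zfp951, were Zfp800, chr6:28327301-28327950, with 6.36 and 4.68 against 21.3 and 26.3 (-1.93 ± 0.36), and Zfp971 with 45.6 and 50.6 against 185 and 173 (-1.88 ± 0.36). The same Zfp800 interval was listed in Daxx-KO cells, with 11.1, 7.0 and 3.76 against 21.9 and 27.5 (-1.73 ± 0.41). Both tables use the same Daxx-WT libraries. The SE is the same at every DKO site because limma estimated 1 common spread for that table. Over finger arrays, DKO cells had 8 higher sites, at Zfp704, Zfp707, Zfp777, Zfp787, Zfp821, Zfp865, Zfp956 and Zfp982, and 1 lower site, at Zfp740. Any stretch of fingers was counted as an array, and Zfp704 has 1 finger by pattern, Zfp740 and Zfp821 2 each. In Daxx-KO KLS cells 1 lower site also lay over an array, besides the higher one at Zfp930. At Zfp821 the array had 47.7 and 74.0 against 12.4 and 10.97 scaled reads (2.25 ± 0.36).

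Fewer of these genes than of all genes had sites in several tables. Of the 128, 28 had sites in at least 2 tables (21.9% against 35.7%) and 7 in all 3 (5.47% against 12.1%). Gene length had a median of 48.5 kb in the 7 (21.3 to 183 kb), 24.5 kb in the 21 with 2 tables, 21.2 kb in the 47 with 1 and 14.8 kb in the 53 with none, whose longest was 106 kb. The 7 are Zfp704 with 18 sites, Zfp981 with 14, Zfp936 with 13, Zfp992 with 11, Zfp943 with 8, Zfp991 with 4 and Zfp951 with 3. Next were Zfp710 and Zfp985 with 10 sites and Zfp800 with 8, each in 2 tables. Zfp704 (183066 bp) had 1 lower site in LT-HSCs, 1 higher and 3 lower in Daxx-KO KLS cells, and 9 higher and 4 lower in DKO cells. Zfp981 had 1 and 3 lower sites in the Daxx-KO tables and 10 higher in DKO cells, and Zfp936 had 1, 1 and 11.

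The cluster of 16 genes on chromosome 4 showed 1 direction in each table, with 1 exception. It was the more common direction of all listed sites of that table. KRAB zinc finger genes of this region are known to repress endogenous retroviruses in embryonic stem cells. Here 13 of the 16 had no start-site peak in any list, and repeated words made up a median of 77.3% of the start windows. Sites in or near its genes were 4 lower and 0 higher in Daxx-KO LT-HSCs (3 genes), 11 lower and 0 higher in Daxx-KO KLS cells (6 genes), and 41 higher and 1 lower in DKO KLS cells (10 genes with a higher site). Of all listed sites, 29.1%, 19.1% and 72.1% were higher in these tables. Of all genes, 18.1% and 29.9% had a lower site in the Daxx-KO tables, and 43.1% a higher one in the DKO table. The 41 had a median log2 fold change of 1.21, from 0.87 to 1.91, and 33 of them were called by limma. That share is no larger than elsewhere. Outside the cluster 76 of the 79 higher sites were called, and over all listed DKO sites 34252 of 36740 higher ones. After scaling to the mean reads per window the 41 were still higher, from 0.19 to 1.23. Under that scaling 9 higher sites were called over the whole set of genes described here. The lower sites ran from -1.28 to -0.87 in LT-HSCs and from -1.50 to -0.90 in Daxx-KO KLS cells, and none was called. The KLS tables share their Daxx-WT libraries.

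Over the whole span of the cluster, genes or not, the DKO table listed 142 higher sites, or 60.7 per Mb against 13.5 per Mb genome-wide, and 7 lower sites. The Daxx-KO KLS table listed 38 lower sites (16.3 per Mb against 5.14) and that of LT-HSCs listed 17 lower sites (7.27 against 3.10), with 0 higher sites in either. The clusters of 13 and 6 genes on chromosome 17 had 4.62 and 14.9 higher DKO sites per Mb, and that of 7 genes on chromosome 7, which holds Zfp936, 26.96. No test of these densities was made. Of the 57 cluster sites, 56 lay outside peaks. Their median share of repeated words was 61.3%, 60.4% and 40.8% for the lower LT-HSC, lower Daxx-KO and higher DKO sites, and outside the cluster the same 3 kinds of site had 29.7%, 3.8% and 0.70%. The part of repeated sequence, and of depth, in the pattern was not tested.

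**Figure D5:**
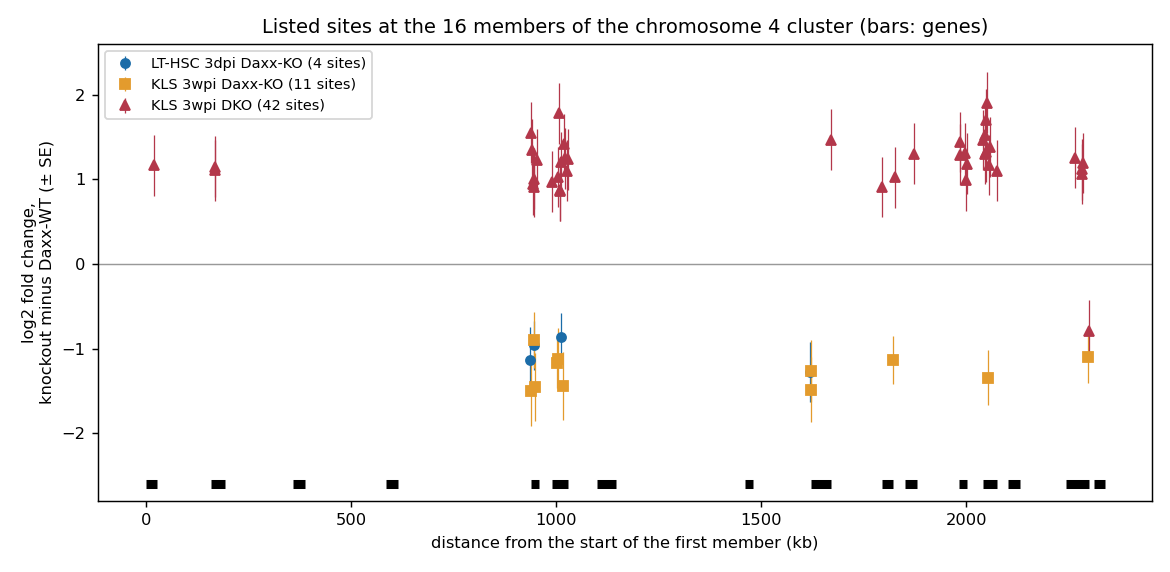
Log2 fold change ± SE, knockout minus Daxx-WT (y axis), of the listed sites in or within 2 kb of the 16 genes of the chromosome 4 cluster, against distance in kb from the start of the first gene (x axis), with black bars for the genes. The 4 LT-HSC sites and the 11 Daxx-KO KLS sites lie below 0, and 41 of the 42 DKO sites lie above it.

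The genes whose products act with this family were described from a list of 22, for H3.3 deposition and KRAB-directed silencing. All 22 had a start-site peak in all 11 lists. In 3 d.p.i. LT-HSCs, 6 had a higher site (27.3%, against 8.88% of all genes) and 4 a lower one (18.2% against 18.1%), the latter being Cabin1, Daxx, Setdb1 and Uhrf1. In Daxx-KO KLS cells 2 had a higher site (9.09% against 7.33%) and 7 a lower one (31.8% against 29.9%). In DKO cells these were 12 (54.5% against 43.1%) and 5 (22.7% against 27.1%). Daxx, part of which is deleted in the knockouts, is counted among the genes with a lower site in each table. Apart from the higher sites in LT-HSCs and DKO cells, these shares lie near or below those of all genes. At H3f3b, 1 of the genes that encode H3.3, a site had 919, 496 and 706 scaled reads in Daxx-KO against 474 and 424 in Daxx-WT LT-HSCs. Another H3f3b site had 108, 87.5 and 48.0 against 40.1 and 43.6 in KLS cells. At Trim28, the co-repressor of KRAB proteins, sites were listed in the DKO table alone, 1 of them in the 3′ portion with 30.8 and 47.8 against 11.5 and 17.6 scaled reads. The sites of this list were selected for a difference like all others, and none of the LT-HSC and Daxx-KO KLS sites was called by limma.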

How the data were processed

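ATAC-seq was measured in 24 libraries of 11 groups, grouped by the titles in the labels. The authors deposited 11 peak lists and 3 site tables on mm10. The submitters' processing notes name CASAVA 1.8.4, cutadapt 1.13, STAR 2.5.3, bedtools and diffReps 1.55.6, and how reads with several matches were handled is not given in the sources used here. The lists of cells without a time label hold positions alone. For the other 5, conservative lists by irreproducible discovery rate, the authors gave each peak a score, a fold enrichment (ratio) and −log10 p-values and q-values, and repeated intervals were counted once. Per the file headers, diffReps used a window of 600 bp, a step of 50 bp and a fragment size of 100 bp, and kept sites with p below 0.0001 by a negative binomial test. The deposited signal per library is the number of reads divided by 1 constant of that library. Other columns of these tables hold the authors' own comparisons (event, log2 fold change, p-values, window statistics) and were not used.

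Peaks and sites were assigned by an overlap of 1 bp to genes of GENCODE M 21, to start sites (1 kb) and to the 3′ portion of a gene (midpoint to end), where peaks at its own start sites were left out. Fingers were counted in the translated longest coding sequence as a cysteine pair with 2 to 4 residues between, 12 residues, and a histidine pair with 3 to 5 between. A word of 32 bases was counted as repeated when it occurs elsewhere in the reference. Promoters were from RefSeq (GRCm38.p6). Sites were fitted with limma 3.58.1 (R 4.3.3) on log2(value + 1), per table over all listed sites, with Benjamini-Hochberg adjustment over the number of windows in each header (413247, 407030 and 446463) and a threshold of 0.05. Fold changes are on that scale and understate the change of low values. The fit was tried on simulated data in which most sites were unchanged, with adjustment over the listed sites alone. That trial therefore does not test calls on selected sites adjusted over all windows. Python 3.11.15, pandas 2.3.3 and pysam 0.24.0 were used otherwise. Total read numbers were not used here, so the precision is known from the reads per window alone.

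The genes and lists were chosen with earlier results of these data known. Genes were named by a rule with 6 parts. These were start-site peaks in 1 genotype's list alone in at least 2 of 6 comparisons in the same direction, and the 3 sites of largest change per table and direction. They were also the first 10 genes with sites in at least 2 tables, the first 10 with a 3′ portion peak at no start site, the 3 highest fold enrichments in Daxx-WT KLS cells, and the first 10 without a start-site peak. Other genes named were chosen after their values were seen. Alternatives covered the start window, the overlap, list length and score, the pseudocount, the scaling, a low-value filter, the adjustment, a replicate block and leaving out each library. A lymphocyte marker and the sequence of a finger array are not reported here.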

Additional observations from a re-analysis of the deposited data

How the results depend on the processing

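Of 434 alternatives, 190 of 198 peak counts, 21 of 24 counts of sites by direction and 47 of 62 counts of limma calls stayed within 1.5 times the reported count, and 0 of 150 log2 fold changes of named sites reversed. The cause of the changes that follow was not tested. With lists of equal length, genes with a start-site peak in 1 list alone numbered 1 for Daxx-KO CMPs, 2 for Daxx-KO and 6 for Daxx-WT KLS cells, and 5 for DKO cells. With a score of at least 540 they numbered 2, 1 and 1 for those KLS lists, and from the 5′ end of the gene record 1 for Daxx-WT CMPs. The shares of all genes under these settings are not given here, and nothing particular to these genes was read from the counts. Restricted to sites in peaks, 2 lower LT-HSC sites, 5 lower Daxx-KO KLS sites and 6 higher DKO sites were left, since fewer sites were counted. Adjusted over the listed sites alone, limma called 3 higher and 14 lower sites in LT-HSCs, 3 higher and 50 lower in Daxx-KO KLS cells, and 34 lower in DKO cells. Over all listed sites, 11454 of 11927, 16749 of 17311 and 50052 of 50928 had unadjusted limma p below 0.05. The counts therefore show nothing particular to these genes, and the shares of all listed sites called under this adjustment are not given here. With the DKO table scaled to the mean reads per window it called 9 higher and 36 lower. For the fits that follow, each without 1 library, the shares of all listed sites called are not given here. Nothing particular to these genes was read from those counts. Leaving out each library in turn gave 0 to 92 higher and 0 to 8 lower DKO calls, and 0 in the other tables. Without either DKO library the count was 0, with the lone library assumed to vary like the controls. Without the first Daxx-WT library it was 68 higher and 7 lower, and without the second Daxx-WT library 8 lower.

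The replicate block could be fitted for the KLS tables alone, and the libraries share only a number, since the correlations of same-numbered deviations were 0.0084 and 0.0517 for Daxx-KO and -0.0031 and -0.0031 for DKO. With the block, 3 lower Daxx-KO sites were called, among them Zfp951 (-2.39) and Zfp947 (-2.13). The main fit called no Daxx-KO KLS site, and the share of all listed sites called with the block is not given here. Since the block rests on a number alone, nothing was read from these calls. For LT-HSCs no paired analysis was possible because the columns carry no replicate numbers. Tests by edgeR and DESeq2 on whole reads were not run, since the deposited columns join the libraries' values and whole reads could not be checked against them. Peak lists have no replicates, depth limits sites of a few reads, and repeated sequence limits what can be seen at near-copies.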
